A study of Capra hircus with 11 samples.

Results

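Naturally derived goat mammary epithelial cells (GMECs) were compared with goat ear fibroblasts before any induction (BFRTV0d fibroblasts). The GMECs side held all 5641 barcodes of its table. The fibroblast side held the 9736 of 10670 BFRTV0d barcodes chosen by their counts of KRT5 and KRT14, which were to sum to at most 2 unique molecular identifiers (UMIs). The 934 day-0 barcodes above this limit are called keratin-positive below. Together both sides made up 15377 of the 41854 barcodes of the series.

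Cells were profiled by droplet single-cell RNA sequencing of 3′ ends. The labels name 2 GMECs samples, for which no induction time is given, and 3 BFRTV0d samples of ear fibroblasts at day 0, that is, before their medium was changed for the induction medium named BFRTV. The titles of the 2 GMECs samples differ only in the lane, and those of the 3 BFRTV0d samples in a sample number, a lane or both. No source says that samples came from separate cultures or animals. The other groups of the series are fibroblasts after 4 days (BFRTV4d) and 8 days (BFRTV8d) in the induction medium, and day-8 cells passaged further in goat mammary epithelial medium (CiMECs). The animals, the passage number and the medium of the GMECs were not given in the sources used here. Each group came as 1 pooled table in which barcodes carry no sample, so there was no replicate, no test and no p-value. Every difference below is between these libraries, and intervals are exact 95% intervals of the counts that cover counting error only.

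Mammary epithelium is built of luminal cells, which face the duct and make milk under hormonal control, and of basal cells, which contract and rest on the basement membrane. Both are held together by cadherin junctions, desmosomes and tight junctions and are filled with keratin filaments, of which KRT8 and KRT18 are typical of luminal cells and KRT5 and KRT14 of basal cells. Dermal fibroblasts instead lie singly in a matrix of fibrillar collagens that they secrete and process, and express mesenchymal transcription factors such as PRRX1, TWIST2 and ZEB2.

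GMECs held 111001606 UMIs in all, of which ribosomal protein genes took 35.0%, and 72177482 without them. The fibroblasts held 100427827 UMIs, and their table lists no ribosomal protein gene. Levels are therefore CPM, the UMIs of a gene per 1000000 UMIs of all genes but those of ribosomal proteins. The median barcode had 12007 such UMIs in GMECs and 9867 in fibroblasts, with a lowest value of 348 in GMECs and 3444 in fibroblasts. The GMECs table lists genes found in at least 6 cells, whereas the BFRTV0d table lists genes found in at least 11 cells, so how a table was made and which cells it holds cannot be told apart. No source states why a gene is not listed. A fold against an unlisted gene was computed at 6 counts for GMECs (0.0831 CPM) or 11 counts for BFRTV0d (0.110 CPM) and is written with the words at least. Such a fold is a bound only if the gene had no more counts than this, which was not tested. The sides shared 84 barcode sequences, and no doublet caller was run.

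The labels were checked against marker genes. Of 12 epithelial markers, 11 reached 10 CPM in GMECs and 1 did so in fibroblasts, and the markers summed to 28483 CPM in GMECs, against 53.6 CPM in fibroblasts. Of 16 fibroblast markers, 1 reached 10 CPM in GMECs and 15 did so in fibroblasts, with sums of 30.5 CPM in GMECs and 13059 CPM in fibroblasts. The exception was THY1, a surface glycoprotein of fibroblasts and of some other cells, which stood at 26.0 CPM in GMECs and 82.0 CPM in fibroblasts. Of the fibroblast markers 10 were at 0 or not listed in GMECs, among them COL1A1, COL1A2, COL3A1, DCN, LUM, PDGFRB and TWIST2. GMECs thus had most of these epithelial markers and fibroblasts most of the fibroblast markers. With the exception of THY1, each side had under 10 CPM of those of the other, apart from 1 epithelial marker in fibroblasts. Markers of mammary cells were less complete. Of 17 mammary luminal markers, KRT7, KRT8, KRT18 and KRT19 again among them, 7 reached 10 CPM in GMECs and 1 in fibroblasts. PRLR, KIT, CSN1S1, CSN2, CSN3 and LALBA were not found by symbol in either table. Of 9 basal or myoepithelial markers 6 reached 10 CPM in GMECs and 3 in fibroblasts. KRT5 and KRT14, whose counts chose the fibroblast barcodes, are among those counted on both sides, so this count is no check of the labels. Markers of immune cells summed to 4.61 CPM in GMECs and 8.15 CPM in fibroblasts, with CD68 the highest on both sides. Endothelial markers summed to 21.2 CPM in GMECs and 182 CPM in fibroblasts, and of this sum 145 CPM in fibroblasts were EGFL7. ERG, an endothelial transcription factor, was not listed in GMECs and stood at 33.3 CPM in fibroblasts, and PECAM1 stood at 0 CPM in GMECs and 2.13 CPM in fibroblasts.

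Single barcodes showed the same separation. After each barcode was thinned to 2000 UMIs, which left out 858 GMECs barcodes and no fibroblast, the median GMECs barcode showed 6 of the 12 epithelial markers and 0 of the 16 fibroblast markers. The median fibroblast barcode showed 0 epithelial and 8 fibroblast markers. Among 4783 thinned GMECs barcodes 2 had a UMI of at least 2 fibroblast markers, and among 9736 thinned fibroblast barcodes 48, or 0.493%, had a UMI of at least 2 epithelial markers. The median barcodes of the sides thus stood apart on both scores, as the plot of markers per barcode shows. The epithelial score of the fibroblasts depends in part on the choice of barcodes. Among the 934 keratin-positive day-0 barcodes that were left out, 69.6% had a UMI of at least 2 epithelial markers.

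**Figure D1:**
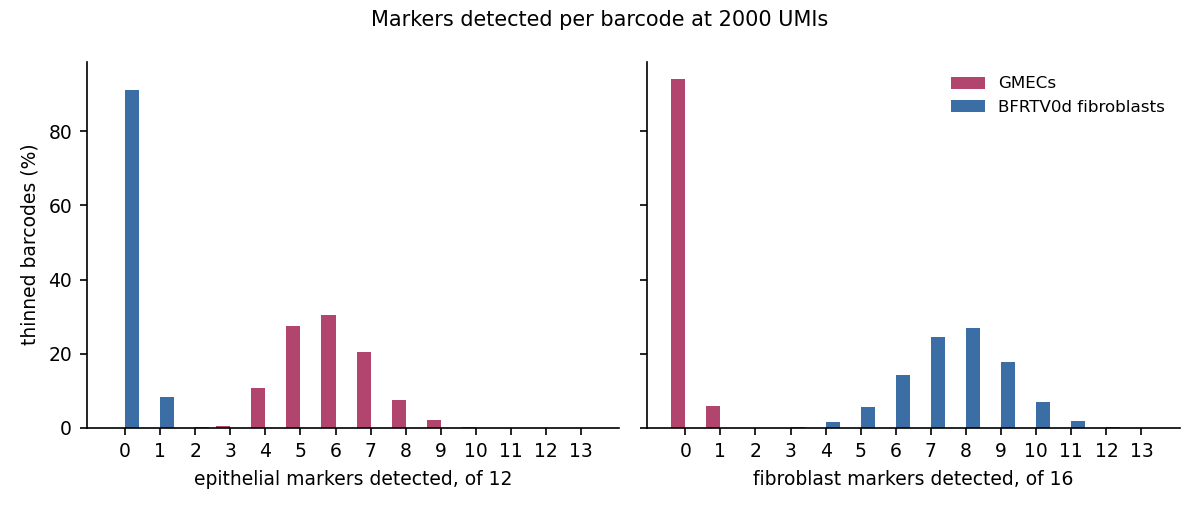
Number of epithelial markers (left, of 12) and fibroblast markers (right, of 16) with at least 1 UMI in each barcode after thinning to 2000 UMIs, as percent of 4783 GMECs barcodes and of 9736 BFRTV0d fibroblast barcodes. The median GMECs barcode has 6 epithelial and 0 fibroblast markers, and the median fibroblast barcode 0 and 8.

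Of 15633 genes in either table, 8786 reached 10 CPM on at least 1 side and were compared. Of these, 632 genes (7.19%) had a CPM in GMECs of 4 or more times that in fibroblasts, and 1062 genes (12.1%) a level lower by this factor or more. From here on, 4-fold higher or lower means by a factor of 4 or more, and a list's counts are read beside these percentages of all compared genes. A difference of 100-fold or more was found for 187 genes in the higher and 292 genes in the lower direction. Higher genes made up 37.3% of those 4-fold apart, but 52.1% when scaling used TMM factors, 53.3% with median-of-ratios factors and 18.2% when ribosomal protein genes stayed in the totals. These scalings moved the median log2 fold of all genes, which was -0.53, by 0.50, 0.54 and -0.66. List medians below are therefore given relative to the median of all genes, with genes at a bound taken at their bound. Of the 235 genes that the naming rule chose, 176 were 4-fold apart. The scalings shift all genes alike and by less than a factor of 4, so they cannot turn these genes, and none of the 176 changed direction in the 4 alternatives that took other barcodes or weighted barcodes equally. The minimum of 10 CPM decided which genes entered, with 270 genes whose higher level lay between 10 and 11 CPM and 303 just outside, between 9 and 10 CPM.

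**Figure D2:**
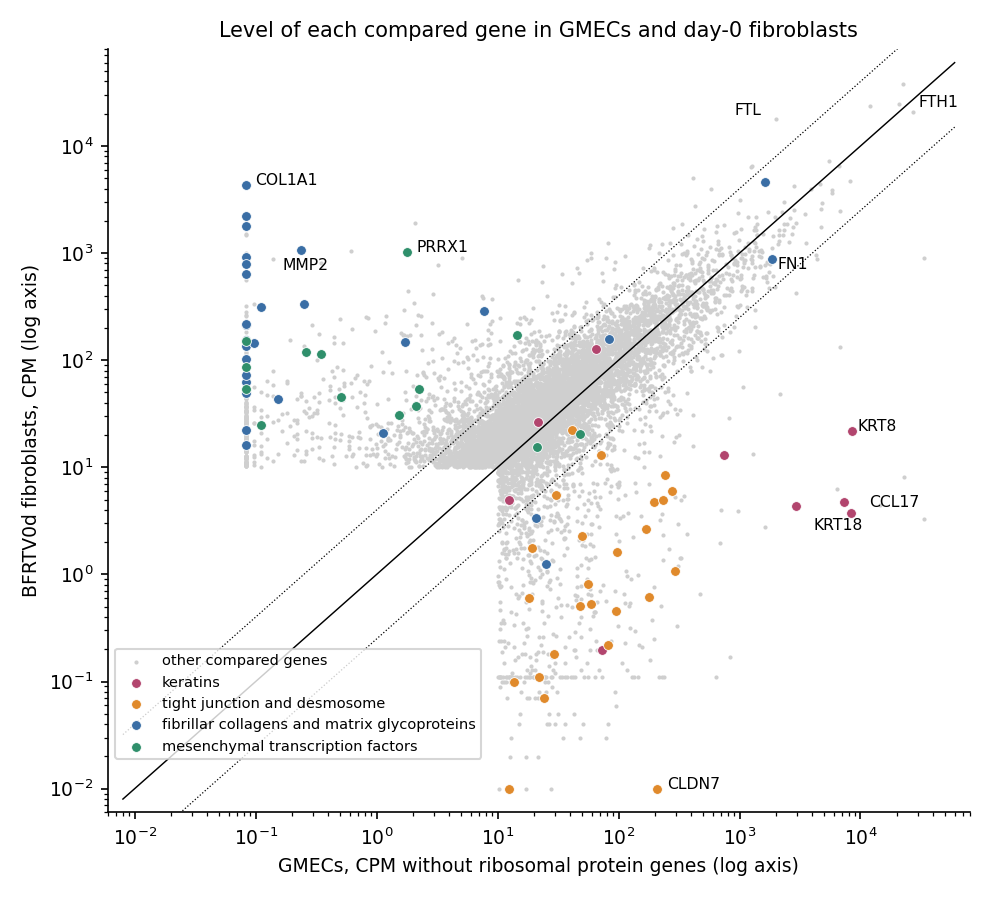
CPM of the 8786 compared genes in GMECs (horizontal) and BFRTV0d fibroblasts (vertical) on log axes, with 4 gene groups in colour. The solid line marks equal levels and the dotted lines 4-fold, and a gene without a UMI is drawn at 0.0831 CPM for GMECs or 0.110 CPM for fibroblasts. COL1A1, drawn at 0.0831 CPM for GMECs, lies far above the dotted lines and the keratins KRT8 and KRT18 far below them. The ferritin gene FTH1 and the fibronectin gene FN1 lie within 4-fold.

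The most abundant genes already set the sides apart. In GMECs CCL17, a chemokine that attracts T cells, stood at 33678 CPM and S100A2, a calcium-binding protein of epithelia, at 33619 CPM. FTH1, the ferritin heavy chain, followed at 27335 CPM in GMECs, against 20836 CPM in fibroblasts. In fibroblasts CCL17 stood at 3.27 CPM and S100A2 at 903 CPM, so that CCL17 was 10312-fold (9254 to 11525) and S100A2 37.2-fold (37.0 to 37.5) higher in GMECs. WFDC2, a secreted protein with a protease inhibitor fold, was at 22931 CPM in GMECs and 8.09 CPM in fibroblasts, 2836-fold (2647 to 3042) higher. The gene LOC102169211, which the RefSeq table of the assembly ARS1.2 places next to CCL17, was at 14555 CPM in GMECs and 4.48 CPM in fibroblasts. Whether CCL17 and LOC102169211 share reads could not be checked. Among abundant genes that differed by less than 2-fold was that of the actin-binding thymosin TMSB10, at 20641 CPM in GMECs and 24791 CPM in fibroblasts. The 12 most abundant genes took 21.98% of the UMIs in GMECs and 16.6% in fibroblasts.

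Keratins were mostly higher in GMECs. Of the 7 keratin genes compared that the choice of barcodes did not use, 5 were 4-fold higher in GMECs and none 4-fold lower, with a median of 9.14 on the log2 scale relative to all genes. With KRT5 and KRT14 included the relative median was 9.05, but 4.70 with all BFRTV0d barcodes on the fibroblast side. KRT8 stood at 8565 CPM in GMECs, against 21.99 CPM in fibroblasts, 389.6-fold (374 to 406) higher. Its partner KRT18 stood at 7373 CPM in GMECs and 4.74 CPM in fibroblasts, 1556-fold (1422 to 1705) higher. KRT19, a small keratin without a tail that is common in ducts, was 2262-fold (2044 to 2510) higher, at 8424 CPM in GMECs and 3.72 CPM in fibroblasts. KRT7, of simple and glandular epithelia, was 663-fold (604 to 729) higher, and KRT80 365-fold (236 to 599). KRT7, KRT8, KRT18 and KRT19 were thus the keratins with the highest levels in GMECs. KRT10, of suprabasal skin cells, went the other way, at 65.4 CPM in GMECs and 126 CPM in fibroblasts, 1.92-fold lower.

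The basal keratins KRT5 and KRT14 chose the fibroblast barcodes and are given as a description. KRT5 stood at 746 CPM in GMECs and 12.9 CPM in the fibroblasts, and KRT14 at 21.7 CPM in GMECs and 26.4 CPM in the fibroblasts. In the 934 day-0 barcodes above the limit KRT5 stood at 1896 CPM and KRT14 at 4262 CPM. At the limit itself, the 613 fibroblast barcodes with 2 UMIs had 35.9 CPM of KRT8 and 4438 CPM of COL1A1. The 111 barcodes just outside, with 3 UMIs, had 93.3 CPM of KRT8 and 4393 CPM of COL1A1. After thinning, 66.4% of GMECs barcodes had a UMI of KRT5, 98.4% had one of KRT18 and 65.3% had both, a pair picked after its values were seen. The overlap follows from the share of KRT18, which was in nearly all of these barcodes.

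Tight junction and desmosome genes were higher in GMECs almost throughout. Of 20 tight junction genes 19 were 4-fold higher in GMECs and none 4-fold lower. Their relative list median was 6.86, but 4.05 with all BFRTV0d barcodes on the fibroblast side. CLDN7, a claudin that seals simple epithelia, stood at 210 CPM in GMECs and had 1 UMI in all fibroblasts, which gives a ratio of 21070 with a counting interval from 3781 to 832274. MARVELD3, of the same junctions, was 375-fold (247 to 599) higher, PARD6B, a polarity protein, 345.5-fold (167 to 860.5) higher, and CLDN10 had 12.4 CPM in GMECs with again 1 UMI in fibroblasts. All 5 desmosomal genes compared were 4-fold higher (relative median 6.45, but 2.76 with all BFRTV0d barcodes). DSP, desmoplakin, was 60.3-fold (51.6 to 70.9) higher at 96.7 CPM in GMECs and 1.60 CPM in fibroblasts, and PPL, periplakin, 287-fold (224 to 375) higher. PERP, a desmosomal membrane protein, was at 195 CPM in GMECs and 4.77 CPM in fibroblasts, 41.0-fold higher, but 628 CPM in the keratin-positive day-0 barcodes of the fibroblast table. With all BFRTV0d barcodes on the fibroblast side its log2 fold of 5.36 became 1.04.

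Cadherins differed in which member was high. CDH1, E-cadherin, stood at 127 CPM in GMECs and 0.906 CPM in fibroblasts, 140-fold (114 to 174.5) higher. CDH2, N-cadherin, stood at 0.831 CPM in GMECs and 60.2 CPM in fibroblasts, 72.4-fold (56.2 to 95.04) lower. CDH11, the cadherin of mesenchymal cells, was not listed in GMECs and stood at 256 CPM in fibroblasts, at least 3082-fold lower. CDH13, a cadherin anchored by lipid, was 6.43-fold (6.19 to 6.68) lower. EPCAM, an epithelial adhesion protein, was 229-fold (194 to 272) higher, at 323 CPM in GMECs and 1.41 CPM in fibroblasts, and JUP, plakoglobin, 23.5-fold (21.6 to 25.5). The keratin-positive day-0 barcodes had 218 CPM of JUP, against 139 CPM in GMECs. With all BFRTV0d barcodes on the fibroblast side the log2 fold of JUP went under 4-fold, at 1.92 in place of 4.55, and so did that of NECTIN4, a nectin of epithelia, at 1.98 in place of 5.03. The catenins that link cadherins to actin moved less, with CTNNA1 2.35-fold higher, CTNNB1 2.28-fold lower, and CTNND1 at 33.2 CPM in GMECs and 34.0 CPM in fibroblasts. Of the 10 members compared 4 were 4-fold higher and 3 were 4-fold lower, and the relative list median was 1.13, or 0.50 with a minimum of 5 CPM.

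**Figure D3:**
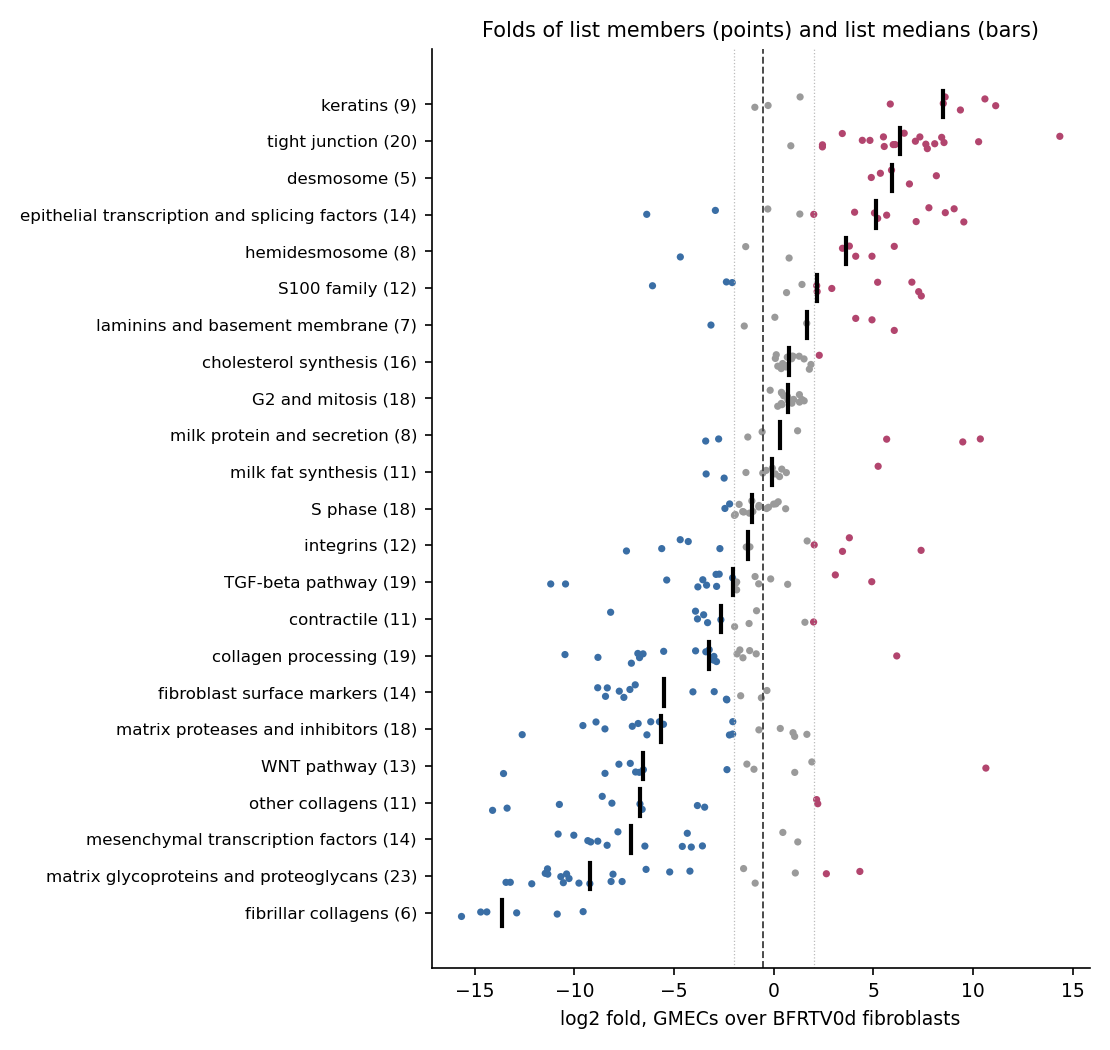
Log2 fold (GMECs over BFRTV0d fibroblasts) of each compared member of 23 gene lists, with the number compared in brackets. Red points are 4-fold higher and blue points 4-fold lower in GMECs, black bars are list medians, the dashed line is the median of all compared genes at -0.53, and a gene without a UMI on 1 side is drawn at its bound. Keratin, tight junction and desmosome medians lie to the right and collagen and mesenchymal medians to the left. The keratin points and bar include KRT5 and KRT14, whose counts chose the fibroblast barcodes.

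Genes that attach cells to the basement membrane were mostly higher in GMECs. Of 8 hemidesmosome genes 5 were 4-fold higher and 1 was 4-fold lower, with a relative median of 4.16, but 1.17 with all BFRTV0d barcodes. LAMA3 and LAMB3 encode chains of the laminin that hemidesmosomes bind. LAMB3 stood at 326 CPM in GMECs and 4.91 CPM in fibroblasts, 66.4-fold (60.7 to 72.7) higher, and LAMA3 was 30.6-fold (27.4 to 34.2) higher. ITGA6 and ITGB4, the integrin pair of the hemidesmosome, were 13.9-fold and 10.96-fold higher. The keratin-positive day-0 barcodes had more of these 4 than GMECs, with ITGB4 at 294 CPM there, against 77.5 CPM in GMECs. With all BFRTV0d barcodes on the fibroblast side, the log2 folds of LAMA3, ITGA6 and ITGB4, which were 4.94, 3.80 and 3.45, became 1.31, 0.99 and 0.67. DST, the linker dystonin, was 25.7-fold (22.5 to 29.6) lower in GMECs.

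Other integrin subunits differed in both directions. ITGB6, an epithelial subunit that activates TGF-beta, stood at 111 CPM in GMECs and 0.657 CPM in fibroblasts, 169-fold (133 to 219) higher. ITGA5, the alpha chain of the fibronectin receptor, stood at 2.04 CPM in GMECs and 341 CPM in fibroblasts, 168-fold (142.5 to 198.4) lower. ITGA1, which binds collagen, was 49.1-fold and ITGB3 25.8-fold lower. Over 12 integrins 4 were 4-fold higher and 5 were 4-fold lower, and their relative median of -0.75 became 2.49 when only genes with 50 CPM were kept. LAMC1, the gamma chain shared by many laminins, was 8.86-fold (8.51 to 9.22) lower in GMECs, unlike LAMA3 and LAMB3. COL4A1 and COL4A2, collagen chains of the basement membrane, were 4.63-fold (4.30 to 5.00) and 4.45-fold (4.13 to 4.81) higher in GMECs, and fell under 4-fold with ribosomal protein genes in the totals or with all BFRTV0d barcodes.

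Transcription and splicing factors of epithelia were higher as a group, with 10 of 14 being 4-fold higher and 2 being 4-fold lower. Their relative median was 5.67, but 2.82 with all BFRTV0d barcodes. GATA3, which maintains the luminal lineage in mice, stood at 69.0 CPM in GMECs and 0.129 CPM in fibroblasts, 533-fold (311 to 1002) higher. OVOL2, a repressor of mesenchymal genes, was 747-fold (291 to 2744) higher, with 29.7 CPM in GMECs and 0.0398 CPM in fibroblasts. EHF and ELF3, ETS factors of epithelia, were 392-fold (277 to 573) and 222-fold (129 to 417) higher, and ESRP1, an epithelial splicing regulator, 142-fold (106 to 195). FOXA1, a pioneer factor of hormone-responsive luminal cells, was 33.3-fold (24.6 to 46.3) higher at 14.3 CPM in GMECs. SOX9, of luminal progenitors among other cells, was 4.03-fold (3.90 to 4.17) higher and fell under 4-fold with ribosomal protein genes in the totals or with all BFRTV0d barcodes. The 2 that were lower in GMECs were ID4, a helix-loop-helix inhibitor of the basal lineage, 82.8-fold (52.9 to 138), and TBX3, 7.60-fold (6.97 to 8.30). Several factors that define mammary lineages were below the minimum on both sides. ELF5, of secretory progenitors, stood at 0.263 CPM in GMECs and 0.229 CPM in fibroblasts, and TP63, of basal cells, was not listed in GMECs and stood at 0.349 CPM in fibroblasts.

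Mesenchymal transcription factors gave the opposite picture, with 12 of 14 being 4-fold lower in GMECs, none 4-fold higher and a relative median of -6.61. With only genes listed in both tables this relative median was -4.07. PRRX1, a homeobox factor of dermal fibroblasts, stood at 1.77 CPM in GMECs and 1030 CPM in fibroblasts, 581-fold (488.5 to 696) lower. TWIST2, ZEB2 and MEOX2 were not listed in GMECs and stood at 150.2, 87.0 and 53.4 CPM in fibroblasts, at least 1807-fold, 1046-fold and 643-fold lower. ZEB1, known from human cells as a repressor of CDH1, was 226-fold (114 to 523) lower, TCF4 454-fold (291 to 755) and PRRX2 328.5-fold (222 to 508). The Snail factors were lower by less, SNAI1 24.0-fold (20.5 to 28.2) and SNAI2 11.9-fold (11.2 to 12.7), and SNAI2 kept 14.4 CPM in GMECs. Against the direction of the list, OSR1 stood at 47.8 CPM in GMECs and 20.7 CPM in fibroblasts, 2.31-fold (2.19 to 2.44) higher. HOX genes gave no value to compare, since none of the 8 found reached 10 CPM. The highest was HOXB7, at 6.37 CPM in GMECs and 0.329 CPM in fibroblasts.

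Fibrillar collagens had the lowest median of all lists. The 7 fibrillar collagen genes were not listed in GMECs, and the 6 that reached 10 CPM in fibroblasts had a relative median of -13.12. COL1A1, one chain of type I collagen, stood at 4329 CPM in fibroblasts, at least 52072-fold lower in GMECs. COL1A2, its partner, was at least 26686-fold and COL3A1 at least 21566-fold lower. COL6A3 and COL6A1, of the beaded microfibrils around fibroblasts, were not listed in GMECs and stood at 1468 and 886 CPM in fibroblasts, whereas COL6A2 had 0.610 CPM in GMECs and 1054 CPM in fibroblasts, 1730-fold (1288 to 2381) lower. In fibroblasts 99.9% of barcodes had a UMI of COL1A1, and 98.8% had one after thinning.

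Enzymes that modify and cross-link collagen were lower in GMECs less uniformly, with 13 of 19 being 4-fold lower, 1 being 4-fold higher and a relative median of -2.70. LOXL1, a cross-linking lysyl oxidase, stood at 2.92 CPM in GMECs and 413 CPM in fibroblasts, 141-fold (123 to 162.5) lower. PLOD2, which hydroxylates lysine in collagen, was 113-fold (82.4 to 159) lower, and PCOLCE2, an enhancer of procollagen cleavage, at least 1422-fold lower. A further lysyl oxidase, LOXL4, was the member 4-fold higher, at 45.4 CPM in GMECs and 0.627 CPM in fibroblasts, 72.4-fold (56.5 to 94.5).

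Other matrix proteins followed the collagens, with exceptions. Of 23 glycoproteins and proteoglycans 18 were 4-fold lower in GMECs and 2 were 4-fold higher. Their relative median was -8.69, but -4.71 with only genes listed in both tables. BGN and LUM, small proteoglycans that bind collagen, were not listed in GMECs and stood at 920 and 793 CPM in fibroblasts. SPARC, a secreted collagen chaperone, stood at 0.236 CPM in GMECs and 1064 CPM in fibroblasts, 4519-fold (2822 to 7757) lower, and MFAP2, of elastic microfibrils, was 2826-fold (1434 to 6546) lower. FN1, fibronectin, was higher in GMECs, at 1870 CPM, against 880.5 CPM in fibroblasts, 2.12-fold (2.11 to 2.14). The 2 members 4-fold higher were EFEMP1, a fibulin, at 25.4 CPM in GMECs and 1.26 CPM in fibroblasts, and THBS2, thrombospondin 2, at 20.9 and 3.35 CPM on the same sides. THBS1, which activates latent TGF-beta, was 2.85-fold (2.83 to 2.87) lower but stood at 1610 CPM in GMECs.

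Among proteases MMP2, which degrades denatured collagen and type IV collagen, stood at 0.139 CPM in GMECs and 873 CPM in fibroblasts, 6303-fold (3427 to 13143) lower. MMP3 was 354-fold (172 to 881) and MMP19 at least 763-fold lower. Over 18 proteases and inhibitors 13 were 4-fold lower and none 4-fold higher. PLAU, the urokinase, and TIMP3, an inhibitor bound to matrix, went the other way, 3.18-fold (3.12 to 3.24) and 2.08-fold (2.05 to 2.11) higher in GMECs.

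The widely used mesenchymal markers VIM and S100A4 differed far less than collagens. VIM, vimentin, stood at 1237 CPM in GMECs and 6302 CPM in fibroblasts, 5.10-fold (5.06 to 5.13) lower, and came under 4-fold with the TMM factors and also with the median-of-ratios ones. S100A4 stood at 1258 CPM in GMECs and 6514 CPM in fibroblasts, 5.18-fold (5.14 to 5.21) lower, and likewise came under 4-fold with both factors. After thinning 79.5% of GMECs barcodes had a UMI of VIM, 98.4% had one of KRT18 and 78.4% had both. As KRT18 was in nearly all of these barcodes, the overlap follows from its share. Among fibroblasts 99.9% had a UMI of VIM, 0.698% one of KRT18 and 0.678% both. Receptors of fibroblasts differed more, with PDGFRA 456-fold (231 to 1056) lower, PDGFRB at least 347-fold lower, NT5E, the ectonucleotidase CD73, 326.5-fold (231 to 477.5) lower, and LRP1 215-fold (174 to 269) lower.

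**Figure D4:**
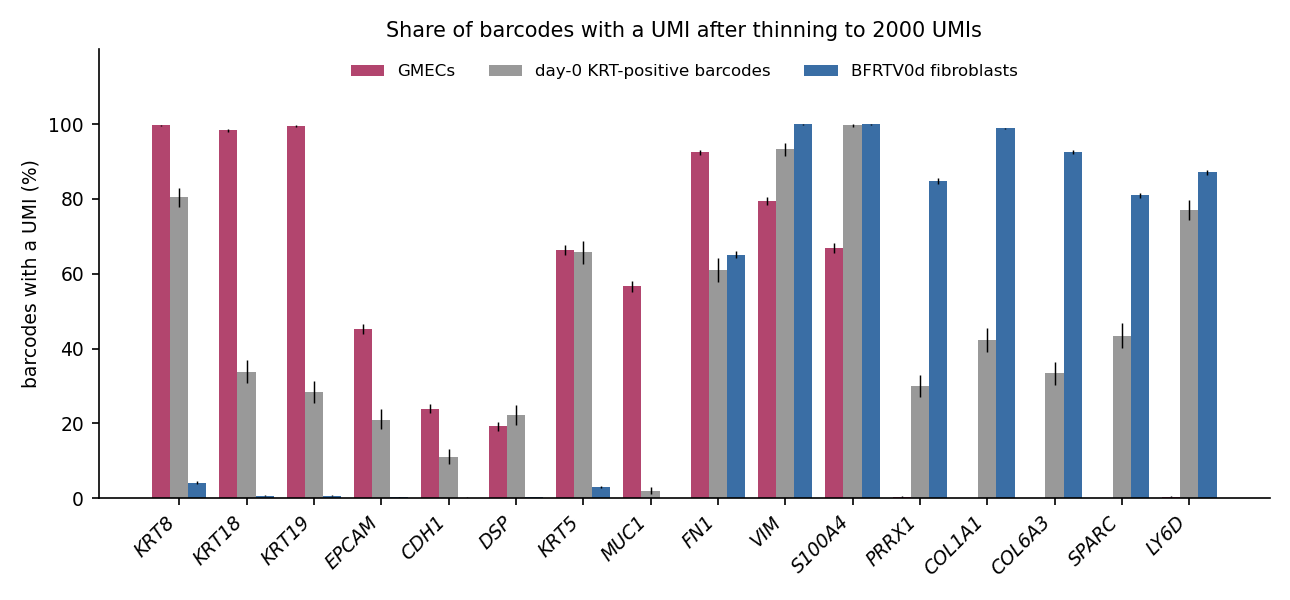
Percent of barcodes with at least 1 UMI of 16 genes after thinning to 2000 UMIs, in 4783 GMECs barcodes, the 934 keratin-positive day-0 barcodes and 9736 BFRTV0d fibroblast barcodes, with exact 95% binomial intervals. KRT8 is at 99.7% in GMECs and 4.06% in fibroblasts, COL1A1, unlisted in GMECs and drawn at 0 there, at 98.8% in fibroblasts, and FN1 and VIM are frequent on both sides.

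For KRT8, EPCAM, CDH1 and PRRX1 the shares of barcodes with a UMI lay in the same direction between the sides as the levels. KRT8 was found in 99.8% of GMECs barcodes and 18.0% of fibroblast barcodes, and after thinning in 99.7% and 4.06% on these sides. EPCAM was found in 85.8% of GMECs and 1.15% of fibroblasts, and after thinning in 45.2% of GMECs and 0.236% of fibroblasts. CDH1 was found in 67.7% of GMECs and 0.781% of fibroblasts, and after thinning in 23.9% and 0.175% on these sides. PRRX1 was found in 2.15% of GMECs and 99.8% of fibroblasts, and after thinning in 0.272% of GMECs and 84.8% of fibroblasts. The low shares of KRT8, EPCAM and CDH1 in fibroblasts follow in part from the choice of barcodes with few UMIs of KRT5 and KRT14. Not every keratin was low in them, since KRT10 stood at 126 CPM. In the fibroblasts KRT8, KRT18, KRT19, EPCAM, DSP and PERP stood at 0.710%, 0.808%, 0.895%, 0.842%, 1.23% and 0.760% of their level in the keratin-positive barcodes of the same table. Outside the range of these values lay CCL17 at 2.30%, KRT7 at 1.51% and AREG at 0.545%. A part of RNA free in the suspension in these levels was not tested.

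Thinned counts also showed how evenly a gene was spread over GMECs barcodes. The 10% of barcodes richest in KRT19 held 24.4% of its UMIs, and the 10% richest in CCL17 held 26.5%. S100A8 and LAMB3 had like means, of 0.70 UMIs a barcode each, but the richest 10% held 79.6% of the UMIs of S100A8 and 39.9% of those of LAMB3. UBE2C, a mitotic ubiquitin-conjugating enzyme, likewise had 77.5% of its UMIs in the richest 10%, against 46.9% for PPL at the same mean of 0.37. In fibroblasts the neutrophil chemokine CXCL8 had 50.02% of its UMIs in the richest 10%, against 28.0% for MMP2 at a like mean of 1.7 UMIs. S100A8, UBE2C and CXCL8 were thus less evenly spread than the genes of like mean set beside them.

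Of milk proteins, the caseins, LALBA and PAEP were not found by symbol in either table. SPP1, osteopontin, which is abundant in milk and in many other secretions, stood at 6798 CPM in GMECs and 133 CPM in fibroblasts, 51.0-fold (50.1 to 51.9) higher. MUC1, a mucin of the apical membrane and the milk fat globule, stood at 473 CPM in GMECs and 0.657 CPM in fibroblasts, 720-fold (566 to 931) higher. PIGR, which carries immunoglobulin A into milk, stood at 145 CPM in GMECs and was not listed in BFRTV0d, at least 1326-fold higher. These 3 of 8 members were 4-fold higher, while MFGE8, a protein of the milk fat globule, was 6.78-fold (6.44 to 7.15) and FABP3, a fatty acid carrier, 10.6-fold (8.98 to 12.7) lower in GMECs. LTF, lactoferrin, stood at 0.319 CPM in GMECs and 0.139 CPM in fibroblasts. The relative list median was 0.84, but 0.11 with no minimum and -0.07 with only genes listed in both tables.

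Receptors of ovarian steroids and prolactin were under the minimum or not found on both sides. ESR1, the estrogen receptor, stood at 0.374 CPM in GMECs and 0.358 CPM in fibroblasts, and PGR, the progesterone receptor, was at 0 CPM in GMECs and 0.149 CPM in fibroblasts. PRLR, ERBB4, STAT5A and KIT were not found by symbol in either table. ERBB3, a receptor of neuregulins, stood at 16.4 CPM in GMECs and 0.0996 CPM in fibroblasts, 165-fold (89.3 to 344) higher, whereas ERBB2, its partner, was 1.97-fold higher and EGFR 1.40-fold lower. IGF1R, which mediates growth by IGF1, was 104-fold (78.0 to 140.5) lower in GMECs at 0.665 CPM, against 68.8 CPM in fibroblasts. SOCS2, an inhibitor of cytokine signalling, was 50.4-fold (46.4 to 55.0) lower. ALDH1A3, a retinaldehyde dehydrogenase of luminal progenitors, stood at 263 CPM in GMECs and 1.74 CPM in fibroblasts, 151-fold (130 to 176) higher.

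Lipid genes of milk fat differed in both directions, whereas those of cholesterol synthesis had a relative median of 1.32. Of 11 genes of milk fat synthesis 1 was 4-fold higher and 2 were 4-fold lower, and ACSS2, which makes acetyl-CoA from acetate as ruminants do for milk fat, was the higher one, 37.9-fold (28.4 to 51.7). VLDLR, a lipoprotein receptor, was 10.5-fold (9.27 to 11.9) and MID1IP1 5.60-fold (5.27 to 5.96) lower. Of the cholesterol genes all 16 had a log2 fold above 0, from 0.08 for SREBF2, a gap smaller than the shift that ribosomal protein genes in the totals bring, and FDPS, farnesyl diphosphate synthase, was the only member that was 4-fold higher, 4.88-fold (4.74 to 5.04), which ended under 4-fold with ribosomal protein genes in the totals. HMGCS1, an early enzyme of the pathway, was 3.46-fold (3.36 to 3.56) and FDFT1, squalene synthase, 2.88-fold (2.76 to 3.00) higher.

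Retinoid genes included some of the highest folds. TGM2, a transglutaminase induced by retinoic acid, stood at 828 CPM in GMECs and 0.169 CPM in fibroblasts, 4889-fold (3053 to 8393) higher. ALDH1A1, a further retinaldehyde dehydrogenase, stood at 24.9 CPM in GMECs and was not listed in BFRTV0d. The retinoic acid receptor RARG was 18.0-fold (16.4 to 19.8) and RBP4, the retinol carrier, 118.5-fold (101.4 to 139) lower in GMECs. With 4 of 10 genes being 4-fold higher and 2 being 4-fold lower, the list had a relative median of 1.66 that became -0.82 without a minimum.

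Genes of defence and of squamous differentiation were also present in GMECs. Of 12 S100 genes 7 were 4-fold higher and 3 were 4-fold lower, of 9 defence genes 3 and 1, and of 7 genes of keratinocyte differentiation 5 and 2. S100A8 and S100A9, the calprotectin chains, were 155-fold (137 to 177) and 170.1-fold (144 to 203) higher. LCN2, an iron-scavenging lipocalin, stood at 12.03 CPM in GMECs and was not listed in BFRTV0d, at least 110-fold higher, while CXCL8 was 15.7-fold (15.2 to 16.3) lower. IRF7, an interferon-induced factor, was 24.1-fold (21.0 to 27.8) higher and XAF1 8.43-fold (7.49 to 9.51), whereas IFI6 and ISG15 were within 1.40-fold. CRNN, cornulin, stood at 135 CPM in GMECs and was not listed in BFRTV0d, IVL, involucrin, was 638-fold (249 to 2344) and CSTA, cystatin A, 500-fold (364 to 707) higher. LY6D, a membrane protein of stratified epithelia, went the other way at 2.08 CPM in GMECs and 1920 CPM in fibroblasts, 924-fold (787 to 1092) lower. A UMI of LY6D was found in 2.39% of GMECs barcodes and 98.8% of fibroblast barcodes, and after thinning in 0.439% of GMECs and 87.1% of fibroblasts. CRNN and PIGR had a UMI in 17.4% and 24.9% of thinned GMECs barcodes and both in 4.22%, a pair picked after its values were seen. This overlap was not tested against the one that the shares of CRNN and PIGR alone would give.

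Secreted signals differed in which ligand was high. FGF7, a keratinocyte growth factor that fibroblasts supply to epithelia, was not listed in GMECs and stood at 638 CPM in fibroblasts, at least 7670-fold lower. WNT5A, a ligand of non-canonical WNT signalling, was not listed in GMECs either and stood at 1003 CPM in fibroblasts, at least 12067-fold lower. DKK1, a secreted WNT inhibitor, stood at 96.1 CPM in GMECs and 0.0597 CPM in fibroblasts, 1608-fold (739 to 4384) higher. AREG, amphiregulin, which in mice drives duct growth through EGFR, stood at 197 CPM in GMECs and 0.767 CPM in fibroblasts, 257-fold (206 to 326) higher. HBEGF was 13.7-fold (12.7 to 14.8), PDGFB 166-fold (103 to 285) and MET, the receptor of hepatocyte growth factor, 6.19-fold (5.84 to 6.55) higher. Of 18 ligands, receptors and binding proteins of growth factors, 6 were 4-fold higher and 9 were 4-fold lower in GMECs. FGFBP1, which releases FGFs from matrix, stood at 236 CPM in GMECs and was not listed in BFRTV0d, at least 2150-fold higher. VEGFC, a lymphatic growth factor, was 805-fold (479 to 1472) lower. Of 13 WNT genes 1 was 4-fold higher and 8 were 4-fold lower. Their relative median was -6.01, but -2.03 with no minimum and -0.83 with only genes listed in both tables.

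The TGF-beta list (2 of 19 were 4-fold higher, 10 were 4-fold lower, relative median -1.53) held a wide range. ID1, a target of BMP signalling, stood at 0.346 CPM in GMECs and 809 CPM in fibroblasts, 2336-fold (1582 to 3610) lower. It stood at 0.871 CPM in CiMECs, but at 587 CPM in the keratin-positive day-0 barcodes and 1617 CPM in BFRTV8d. ID1 was thus low only where the table lists ribosomal protein genes, and kind of cell and kind of table cannot be told apart. GREM1, a BMP antagonist, was at least 1396-fold and TGFBI, a matrix protein induced by TGF-beta, 41.3-fold (38.2 to 44.7) lower. INHBB, an activin subunit, was 30.3-fold (23.3 to 40.2) and LTBP1, which stores latent TGF-beta, 8.54-fold (8.16 to 8.94) higher. In the Notch list HES1, a target gene, was 5.91-fold (5.72 to 6.10) higher, though under 4-fold with ribosomal protein genes in the totals, while the receptor NOTCH1 was 6.47-fold (6.13 to 6.84) and LFNG, which modifies Notch receptors, 124-fold (62.8 to 288) lower.

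Contractile genes were mostly lower in GMECs. ACTA2, smooth muscle actin, stood at 15.4 CPM in GMECs and 218 CPM in fibroblasts, 14.2-fold (13.3 to 15.1) lower. TAGLN was 15.2-fold (14.8 to 15.6) and TPM2, a tropomyosin, 291-fold (226 to 380) lower. MYLK, the myosin light chain kinase, was 4.01-fold (3.61 to 4.46) and MYL9, its substrate, 2.97-fold (2.90 to 3.03) higher in GMECs. Of 11 members 6 were 4-fold lower and 1, MYLK, 4-fold higher, and MYLK came under 4-fold when the limit was 0 UMIs, when all BFRTV0d barcodes were used and with ribosomal protein genes in the totals.

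Cell cycle genes differed modestly and by phase. Of 18 genes of S phase 2 were 4-fold lower and none 4-fold higher, with a relative median of -0.54. CCNE2, cyclin E2, stood at 8.85 CPM in GMECs and 48.3 CPM in fibroblasts, 5.45-fold (5.02 to 5.93) lower. None of 18 genes of G2 and mitosis was 4-fold apart, and their relative median was 1.23. CCNB1, cyclin B1, was 2.46-fold (2.34 to 2.58) and UBE2C 2.89-fold (2.81 to 2.97) higher in GMECs. CDKN1C, an inhibitor of cyclin-dependent kinases, was 26.6-fold (20.7 to 34.6) and CCND2 7.501-fold (7.11 to 7.92) lower. GADD45A, a stress gene, was 4.61-fold (4.47 to 4.75) higher and under 4-fold with ribosomal protein genes in the totals or with all BFRTV0d barcodes.

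Metabolic genes differed by list. Of 12 glycolysis genes 1 was 4-fold higher, LDHB, a lactate dehydrogenase chain, 4.33-fold (4.25 to 4.41), and 1 was 4-fold lower, the glucose transporter SLC2A1, 4.10-fold (3.94 to 4.27). Of these, LDHB fell under 4-fold with ribosomal protein genes in the totals or with all BFRTV0d barcodes, and SLC2A1 with TMM factors, with median-of-ratios factors and with equal weight per barcode. In the list of oxidative stress and metal genes more were apart, with 3 of 16 being 4-fold higher and 4 being 4-fold lower. The ferritin chains differed. FTL, the light chain, stood at 2011 CPM in GMECs and 17827 CPM in fibroblasts, 8.87-fold (8.82 to 8.91) lower. In CiMECs, whose table like that of GMECs lists ribosomal protein genes, FTL stood at 2455 CPM. It stood at 11157 CPM in the keratin-positive day-0 barcodes and 11558 CPM in BFRTV8d, whose tables list none. For FTL the kind of cell and the kind of table thus cannot be told apart. FTH1 was 1.31-fold higher in GMECs, a direction that turned with ribosomal protein genes in the totals. GPX3, a secreted glutathione peroxidase, was 44.9-fold (43.6 to 46.2) and GPX2, of gut and other epithelia, 84.7-fold (62.0 to 119) higher in GMECs. ATF3, an early stress factor, was 25.6-fold (23.7 to 27.7) higher and KLF2 17.0-fold (14.2 to 20.7) lower, as 1 and 2 of the 18 heat shock and early response genes were. In lists of other cell types few genes could be compared. CSPG4, of pericytes, was 30.3-fold, CIDEC, of adipocytes, 29.4-fold and S100B, of Schwann cells, 67.7-fold lower in GMECs, whereas COL9A1, of cartilage, was at least 107-fold and AHSP, of red cell precursors, 6.89-fold higher.

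The same genes were read in the other populations to see which differences GMECs shared. The keratin-positive day-0 barcodes come from the same table as the fibroblasts, so their difference from the fibroblasts does not cross tables. In them KRT8 stood at 3098 CPM, EPCAM at 168 CPM and CDH1 at 79.1 CPM, between GMECs and fibroblasts in each case. These barcodes are a mixed set, since after thinning 50.6% of them had a UMI of at least 2 fibroblast markers and 13.3% had none of an epithelial marker. CCL17 stood at 142 CPM, TGM2 at 4.86 CPM and MUC1 at 8.20 CPM in them, against 33678, 828 and 473 CPM in GMECs. PIGR, MAL, CRNN and FGFBP1 were unlisted there as in the fibroblasts, since the 2 sets of barcodes share a table. COL1A1 stood at 884 CPM and LY6D at 1271 CPM in the keratin-positive barcodes. In CiMECs, whose table like that of GMECs lists 74 ribosomal protein genes and genes from 6 cells up, CCL17 was at 20336 CPM, WFDC2 at 17320.5 CPM and KRT18 at 4793 CPM, with COL1A1 at 4.83 CPM. MUC1 in CiMECs stood at 7.97 CPM and PIGR was not listed there. In BFRTV8d KRT19 stood at 3291 CPM, SPP1 at 17305 CPM and COL1A1 at 38.3 CPM, but KRT8 at 338 CPM and CCL17 at 8.05 CPM. WFDC2 stood at 1043 CPM in BFRTV8d and 746 CPM in the keratin-positive barcodes, between its levels in GMECs and in fibroblasts. Of these 5 populations GMECs and CiMECs had the highest levels of CCL17 and WFDC2, and GMECs that of MUC1.

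**Figure D5:**
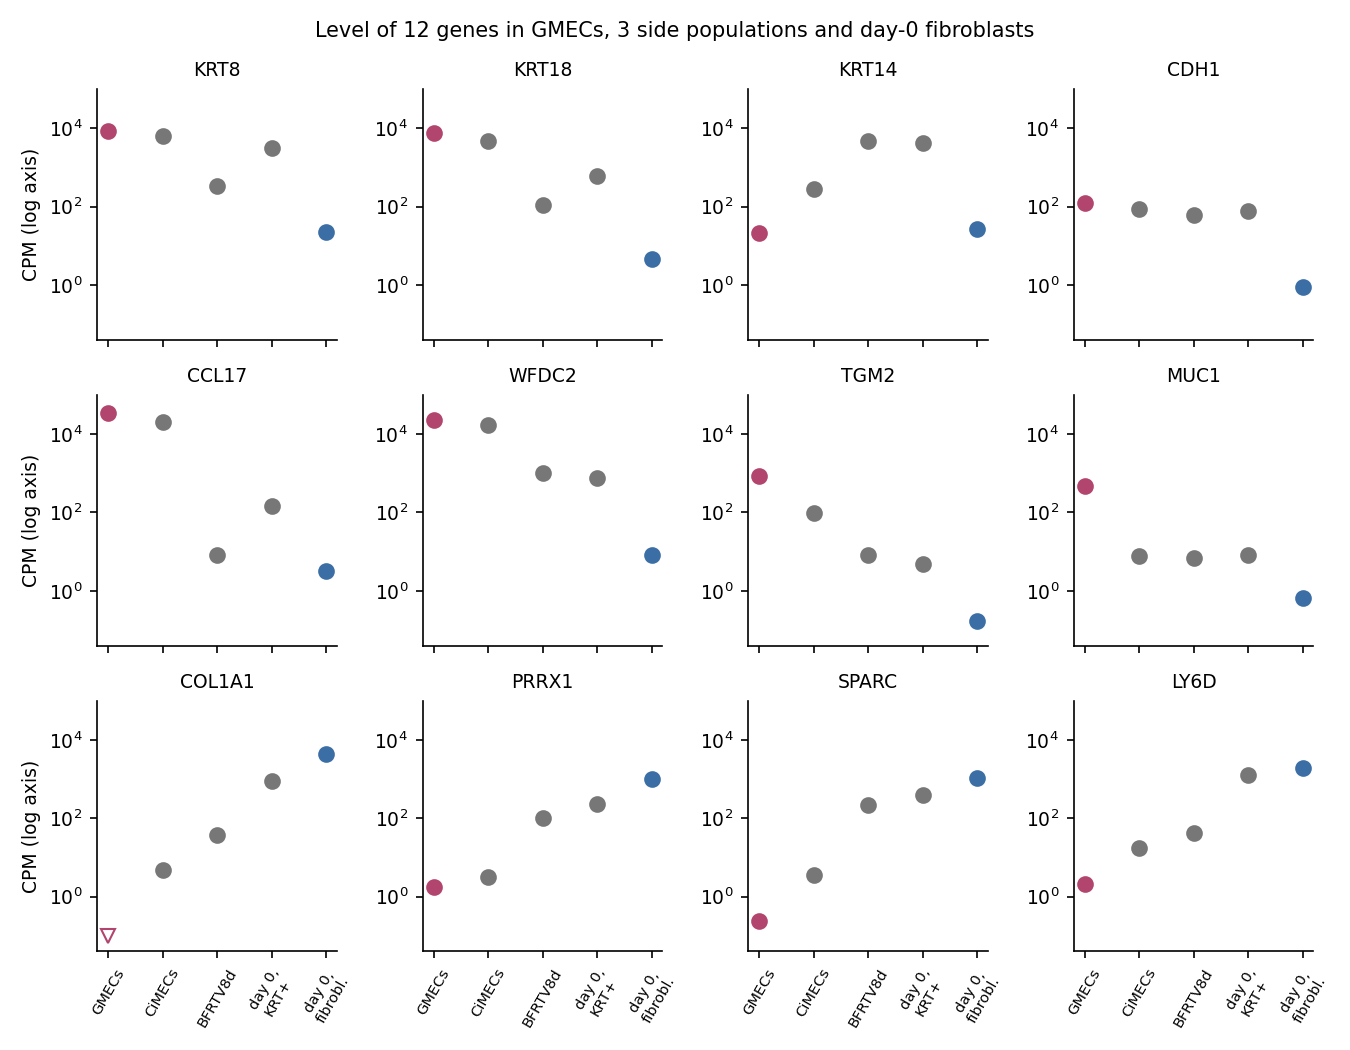
CPM on log axes of 12 genes in GMECs, CiMECs, BFRTV8d, the keratin-positive day-0 barcodes and the BFRTV0d fibroblasts, each from 1 pooled set of barcodes, with an open triangle where the gene is not listed. CCL17 is at 33678 CPM in GMECs and 3.27 CPM in fibroblasts, MUC1 at 473 and 0.657 CPM, and COL1A1 is unlisted in GMECs and at 4329 CPM in fibroblasts.

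Shallow barcodes made little difference to these levels. The 858 GMECs barcodes under 2000 UMIs held 0.974% of the GMECs UMIs. Their levels were 12876 CPM of KRT8, 37822 CPM of CCL17 and 1013 CPM of FN1, against 8523, 33637 and 1879 CPM in the 4783 deeper GMECs barcodes. When GMECs barcodes shallower than the shallowest fibroblast were left out, 632 genes were 4-fold higher and 1065 were 4-fold lower.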

How the data were processed

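The labels describe libraries of the 10x Genomics Single Cell 3′ kit. The authors deposited UMI counts per gene and barcode, 1 table per group, and FastQC 0.10.1 and Cell Ranger appear among the tools in the submitters' processing notes. Build and annotation were not given in the sources used here, and 8689 of 8786 compared symbols occur in RefSeq ARS1.2, used for names and neighbours only.

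From these counts, UMIs were summed over the barcodes of a side (Python 3.11.15, numpy 2.4.6, scipy 1.17.1), ribosomal protein genes were left out, and CPM were formed. A fold is a ratio of CPM with an exact conditional binomial interval. Listed genes at 0 stood at 3 counts. Thinning drew 2000 UMIs per barcode with a fixed seed. edgeR 4.0.16 gave TMM factors for an alternative, with no test. The code for calls was run on simulated counts that held counting error only. Variation between cells, cultures or tables was not simulated. Other alternatives changed the totals, the minimum, the barcodes or their weight.

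The 43 gene lists, the barcodes and the naming rule were chosen with earlier results of these data known. The rule took the 12 highest and 12 lowest folds among symbols with 50 CPM, up to 4 members of each list by fold, members at least 2-fold against their list's median, all compared members of 8 core lists, and the 12 most abundant genes of each side. Results of some genes are not reported here.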

Additional observations from a re-analysis of the deposited data

How the results depend on the processing

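Each value was recomputed under 11 alternatives. Counts of genes at least 4-fold apart were 632 higher and 1062 lower as reported. With ribosomal protein genes in the totals 1927 were lower. With a minimum of 50 CPM 263 were higher and 458 lower, and with no minimum 1428 and 2338. The median log2 fold, not taken relative to all genes, of the Schwann cell and melanocyte list, which rests on S100B alone, turned from -6.08 to 0.70 with a minimum of 5 CPM and to 0.90 with no minimum, as more members entered. Taken relative to the median of all genes in the same setting, 5 of 41 list medians changed sign somewhere, those of this list, integrins, milk proteins, oxidative stress and retinoid genes. Of 176 named genes at least 4-fold apart 27 came under 4-fold in some alternative, and of 59 named genes under 4-fold 13 changed direction. No paired analysis was possible because the samples carry no replicate number and each table pools its samples. Folds of unlisted genes rest on counts set for them and are bounds only if the genes had no more. The tables differ in how genes were listed, so a gene's absence there and in the cells cannot be told apart.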
